A study of Mus musculus with 8 samples.

Results

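The node of Ranvier and paranode adhesion genes are 9 genes, Nfasc, Cntn1, Cntn2, Cntnap1, Cntnap2, Ank3, Sptbn4, Nrcam and Epb41l3, chosen by name from the 54532 genes of a brain RNA sequencing count table. All 9 were present once in the table, and all 9 were among the 16062 genes that passed the low-count filter. The libraries came from brain tissue of male mice aged 3 months, with 4 wild type (WT) libraries and 4 libraries of the genotype Nsun5-KO, which by its label lacks the RNA cytosine methyltransferase Nsun5. Both groups were anaesthetised with pentobarbital sodium at 50 mg/kg and the labels' protocols give 5 littermates per genotype. The labels do not say how the knockout was made, whether it is limited to a cell type, or whether a library holds 1 mouse, so p-values measure the spread between these libraries. The study asks about myelin and sleep in mice without Nsun5, and the comparison here asks whether RNA for the adhesion and scaffold proteins that join the axon to its myelin sheath differed with genotype.

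The libraries held 15642086 to 17829523 counts. Nsun5 itself had 82 to 109 counts in WT and 83 to 124 in the Nsun5-KO libraries, a log2 fold change of 0.13 (edgeR adjusted p = 0.817). A fall in its count was thus not seen. Since how the knockout was made is not stated, this count cannot decide whether the Nsun5 protein was lost, which was not tested. Libraries of the genotype Nsun5-KO are called KO-labelled. The first principal component of log2 CPM (counts scaled to a common library size) held 25.7% of the variance. It set WT replicates 1 and 2, at 29.7 and 36.02, apart from the other libraries. WT replicates 3 and 4 were at -2.49 and -1.75, above all KO-labelled libraries, at -23.8 to -5.26. Markers of neurons and of myelinating oligodendrocytes were abundant in every library.

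In a myelinated axon, sodium channels are gathered at the node, a gap between myelin segments, and potassium channels lie further in, under the myelin of the juxtaparanode. Between them is the paranode, where loops of the oligodendrocyte adhere to the axon and form a septate-like junction. At the node, ankyrin G (Ank3) and beta-IV spectrin (Sptbn4) form the scaffold to which neurofascin (Nfasc) and NrCAM (Nrcam) bind. At the paranode, contactin 1 (Cntn1) and Caspr (Cntnap1) on the axon bind a glial form of neurofascin, and protein 4.1B (Epb41l3) ties Caspr to the axonal cytoskeleton. At the juxtaparanode, contactin 2 (Cntn2) and Caspr2 (Cntnap2) hold the potassium channels in place. Nfasc makes a neuronal and a glial form from the same gene, and the deposited counts add them together. In bulk tissue, fewer cells of a type and less RNA per cell cannot be told apart.

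Coding stretches of the 2 pairs of related members are shown because they encode the contacts that tie the adhesion proteins to the scaffold proteins of the same list. The first pair encodes the part of the intracellular tail through which neurofascin and NrCAM bind ankyrin. It lies at chr1:132570507-132570539 on the minus strand for Nfasc and at chr12:44598468-44598500 on the plus strand for Nrcam (GRCm38), within a coding exon of each gene. Capitals mark the 30 of 33 bases that the pair shares.
Nfasc: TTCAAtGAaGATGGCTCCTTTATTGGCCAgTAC
Nrcam: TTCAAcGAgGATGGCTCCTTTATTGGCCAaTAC
The second pair encodes a stretch of the intracellular tail close to the membrane, the part of Caspr and Caspr2 that binds protein 4.1B. It lies at chr11:101189438-101189467 for Cntnap1 and at chr6:47298486-47298515 for Cntnap2, both on the plus strand and within a coding exon. Capitals mark the 27 of 30 bases that the pair shares.
Cntnap1: AAGGGCtCCTACCACACCAAcGAGcCCAAG
Cntnap2: AAGGGCaCCTACCACACCAAtGAGgCCAAG

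None of the 9 genes was called different between the genotypes. EdgeR called 0 of the 9 at an adjusted p below 0.05, against 0% of all 16062 genes tested (smallest adjusted p = 0.178 over all genes), and DESeq2 also called 0 of the 9, against 0.583% of its genes. At an unadjusted edgeR p below 0.05 there was 1 member, Cntnap1, which was higher in the KO-labelled libraries, beside 10.4% of all genes tested (5.30% higher and 5.05% lower). The CPM values of WT and KO-labelled libraries overlapped in all 9 members, while the groups did not overlap in 5.70% of all genes (2.99% higher and 2.71% lower). The log2 fold change was above 0 in 7 members and below 0 in 2, with a median of 0.05 beside -0.01 over all genes. The median size of the difference, whatever its sign, was 0.06 in the members and 0.12 over all genes. These medians were not matched for expression level, and the members had WT means of 122 (Cntn2) to 518 CPM (Cntn1).

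**Figure D1:**
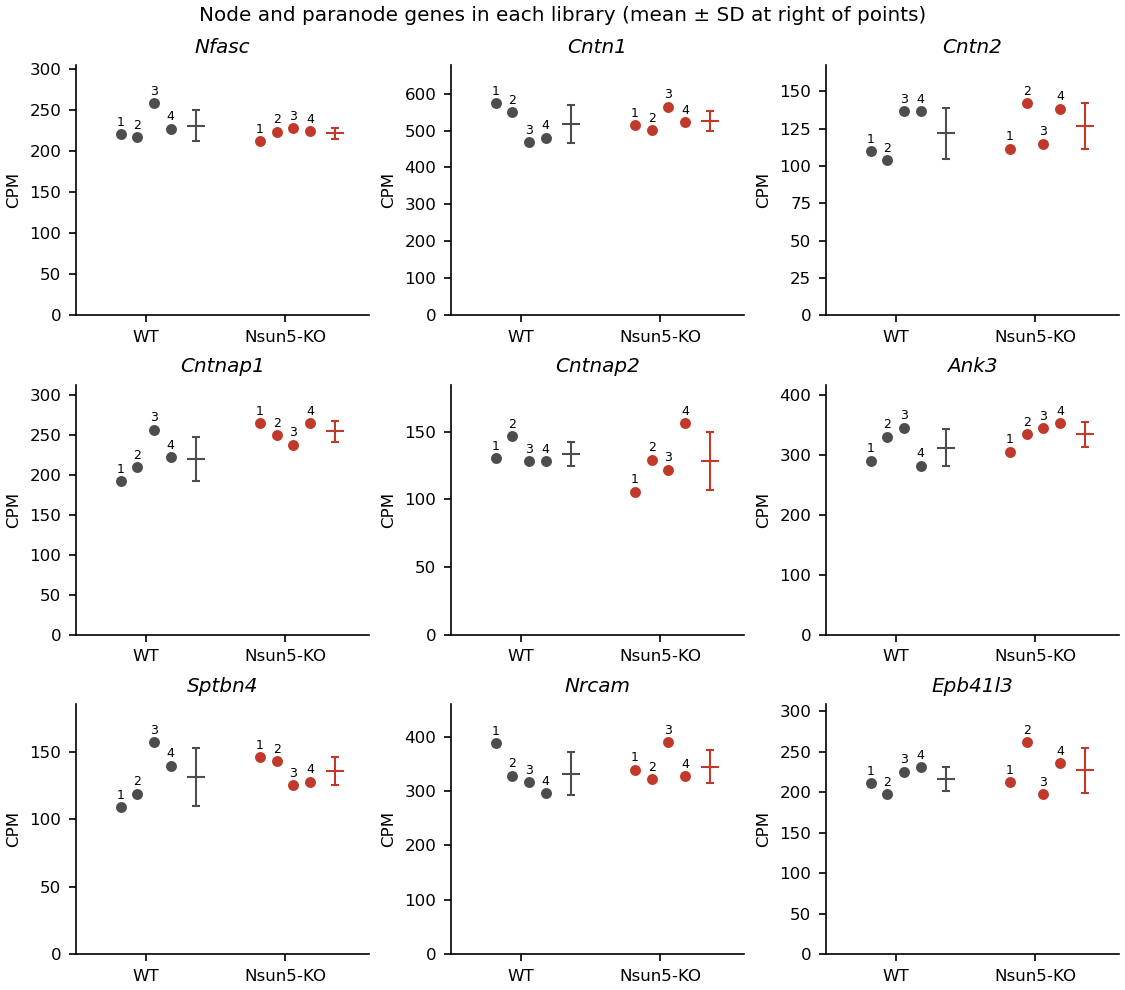
CPM of each of the 9 genes in each library, with WT in grey and the KO-labelled libraries in red. Each point is a library, the digit is its replicate number, and the bar to the right is the mean ± SD of 4 libraries. The groups overlap in every panel.

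Nfasc, the adhesion molecule of both node and paranode, was at 221, 217, 258 and 228 CPM in WT replicates 1 to 4 and at 212, 224, 228 and 224 CPM in the KO-labelled replicates 1 to 4. WT replicate 3 stood above the other 7 libraries, and the KO-labelled values lay close together. The means were 231 ± 18.7 CPM in WT and 222 ± 6.85 in KO-labelled libraries (SD, n = 4 each), with a log2 fold change of -0.06 (SE 0.07, 95% interval -0.21 to 0.10, edgeR adjusted p = 0.827). Without WT replicate 3 the log2 fold change was 0.0013. The gene (ENSMUSG00000026442) lies on chromosome 1 at 132564690 to 132741797, on the minus strand, and has 6 coding transcripts in GENCODE M21.

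Nrcam, whose protein joins neurofascin at the node, was at 388, 329, 317 and 296 CPM in WT and at 339.8, 323, 389.8 and 327 CPM in the KO-labelled libraries. WT replicate 1 and KO-labelled replicate 3 were the high libraries, 1 in each group. The log2 fold change was 0.05 (SE 0.09, 95% interval -0.15 to 0.26, edgeR adjusted p = 0.882), and it was 0.13 without WT replicate 1 and -0.0083 without KO-labelled replicate 3. Nrcam (ENSMUSG00000020598) lies on chromosome 12 at 44328885 to 44601964 and has 11 coding transcripts.

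Ank3 encodes ankyrin G, which anchors sodium channels, neurofascin and NrCAM to the spectrin network. It was at 290.4, 330.3, 346 and 282 CPM in WT and at 306, 335, 345 and 354 CPM in the KO-labelled libraries. Of the KO-labelled values 3 lay above the WT mean, but WT replicates 2 and 3 were within their range. Its fold change on the log2 scale was 0.10 (SE 0.08, 95% interval -0.08 to 0.28, edgeR adjusted p = 0.711), with 0.16 without WT replicate 3 and 0.05 without WT replicate 4. Ank3 (ENSMUSG00000069601) lies on chromosome 10 at 69398773 to 70027438 and has 32 coding transcripts, whose proteins differ in size and place in the cell, and the gene count does not separate them.

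Sptbn4, the beta-IV spectrin of nodes and axon initial segments, was at 109, 119, 157 and 139.8 CPM in WT and at 146, 143, 125 and 128 CPM in the KO-labelled libraries. WT spanned a wider range than the KO-labelled group, with replicates 1 and 2 below all other libraries and replicate 3 above them. The log2 fold change was 0.05 (SE 0.11, 95% interval -0.19 to 0.28, edgeR adjusted p = 0.916). It was -0.13 without WT replicates 1 and 2, a choice made after seeing the data. Sptbn4 (ENSMUSG00000011751) lies on chromosome 7 at 27356383 to 27447686 on the minus strand.

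Cntnap1 encodes Caspr, the axonal protein of the paranodal junction, and had the largest difference of the 9. It was at 192, 209, 256 and 222 CPM in WT and at 265, 249, 238 and 265 CPM in the KO-labelled libraries. All 4 KO-labelled libraries lay above the WT mean, but WT replicate 3 exceeded KO-labelled replicates 2 and 3. The means were 219.9 ± 27.2 and 254 ± 13.2 CPM (SD, n = 4 each), a difference of 15.6% (95% interval 1.28% to 31.98%). In log2 terms the fold change was 0.21 (SE 0.09, edgeR adjusted p = 0.447), which did not pass the threshold and ranked 1231 by unadjusted p among the 16062 genes tested. Without WT replicate 3 the log2 fold change was 0.29 (edgeR adjusted p = 0.209), without WT replicate 1 it was 0.15, and without both WT replicates 1 and 2 it was 0.09. Cntnap1 (ENSMUSG00000017167) lies on chromosome 11 at 101170523 to 101190724. It overlaps Plekhh3 and Ccr10 on the opposite strand, which had at most 170 and 17 counts in a library, while Cntnap1 had at least 3263.

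The partner of Caspr on the axon, Cntn1, was at 573, 549, 469 and 481 CPM in WT and at 514, 501, 564 and 522 CPM in the KO-labelled libraries. The KO-labelled values lay inside the WT range. The groups differed by a log2 fold change of 0.02 (SE 0.08, 95% interval -0.15 to 0.19, edgeR adjusted p = 0.953). Cntn1 (ENSMUSG00000055022) lies on chromosome 15 at 92051165 to 92341967. Epb41l3, the protein 4.1B gene, was at 211, 198, 225 and 231 CPM in WT and at 213, 261, 197 and 236 CPM in the KO-labelled libraries. Its lowest and its highest value were both in the KO-labelled group. EdgeR gave a log2 fold change of 0.07 (SE 0.09, 95% interval -0.13 to 0.27, edgeR adjusted p = 0.842). Epb41l3 (ENSMUSG00000024044) lies on chromosome 17 at 69075683 to 69289989.

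At the juxtaparanode, Cntn2, which both neurons and oligodendrocytes make, was at 110.01, 104, 136 and 136 CPM in WT and at 112, 142, 115 and 138 CPM in the KO-labelled libraries. Each group held 2 low and 2 high libraries, WT replicates 1 and 2 and KO-labelled replicates 1 and 3 being the low ones. The difference on the log2 scale was 0.06 (SE 0.11, 95% interval -0.19 to 0.30, edgeR adjusted p = 0.898). It was -0.11 without WT replicates 1 and 2 and 0.20 without KO-labelled replicates 1 and 3, both choices made after seeing the data. Cntn2 (ENSMUSG00000053024) lies on chromosome 1 at 132509427 to 132543256 on the minus strand, on the same chromosome and strand as Nfasc. Its partner gene Cntnap2, which encodes Caspr2, was at 131, 147, 128 and 129 CPM in WT and at 106, 129, 122 and 157 CPM in the KO-labelled libraries. KO-labelled replicate 1 was the lowest and replicate 4 the highest of all 8 libraries. The log2 fold change was -0.06 (SE 0.11, 95% interval -0.29 to 0.17, edgeR adjusted p = 0.894), and it was -0.17 without KO-labelled replicate 4 and 0.025 without replicate 1. Cntnap2 (ENSMUSG00000039419) lies on chromosome 6 at 45059357 to 47304213.

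**Figure D2:**
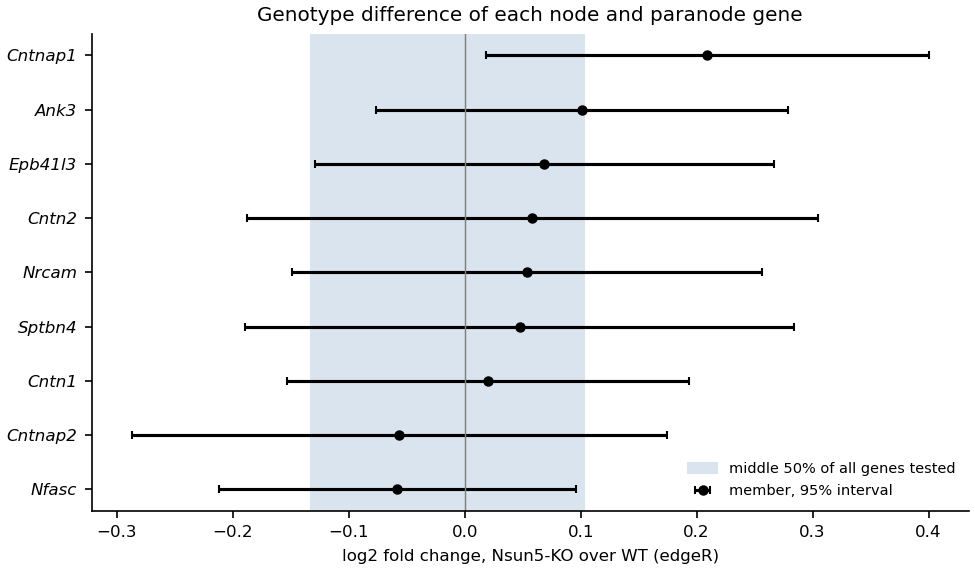
Log2 fold change of the KO-labelled libraries over WT for each of the 9 genes, with the 95% interval from edgeR. The shaded band holds the middle 50% of all genes tested. The interval of Cntnap1 is the only one of the 9 that does not reach 0, at a p that did not pass adjustment over all genes.

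For the 8 members besides Cntnap1, the 95% intervals ran from -18.1% (Cntnap2) to 23.5% (Cntn2). Over all 8 libraries, both genotypes together, the difference between the highest and lowest library was 0.28 (Nfasc) to 0.57 (Cntnap2) on the log2 CPM scale. The median over all genes tested, not matched for expression level, was 0.55.

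In levels per gene length, in the deposited FPKM values (fragments divided by gene length and library depth), Cntn1 was the highest of the 9, at 54.4 ± 5.31 in WT and 55.3 ± 2.96 in the KO-labelled libraries. Cntnap1 followed at 37.1 ± 4.61 and 43.0 ± 2.12 FPKM, and Nrcam at 24.6 ± 2.92 and 25.7 ± 2.34 FPKM (SD, n = 4 each). In WT, the ranges of these 3 genes did not overlap each other or those of the other members. Epb41l3, Nfasc, Sptbn4, Cntn2 and Cntnap2 came next, at 17.97, 16.2, 13.6, 12.96 and 12.91 FPKM in WT, and each overlapped its neighbour in that order. Ank3 was last at 8.88 ± 0.866 FPKM in WT, below the range of Cntnap2. Ank3 also had the longest gene length of the 9, 34838 bases, and FPKM divides all of its transcripts by that single length. The order of the 9 group means was the same in the KO-labelled libraries.

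**Figure D3:**
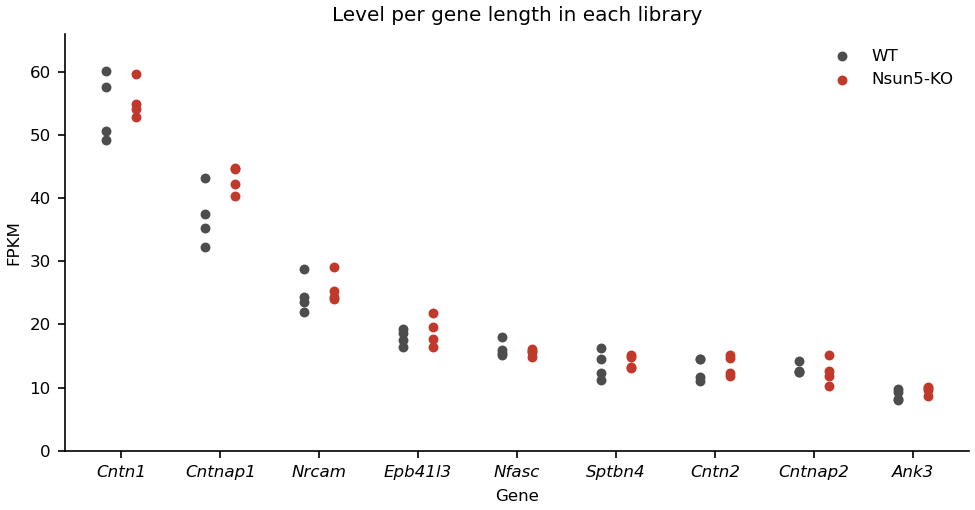
Level per gene length (FPKM, linear axis from 0) of each of the 9 genes in each library, ordered by the WT mean. Grey points are WT and red points are KO-labelled libraries. Cntn1, Cntnap1 and Nrcam stand clear of the others, and Ank3 is lowest.

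Partners of a complex did not keep a fixed ratio between libraries. Cntn1 exceeded Cntnap1 by 1.86, 1.63, 1.14 and 1.35 times in FPKM in WT replicates 1 to 4 and by 1.21, 1.251, 1.48 and 1.23 times in the KO-labelled replicates. The KO-labelled ratios lay within the WT range. Of the 36 ratios between members, 1 separated the groups, that of Nfasc to Cntnap1, at 0.479, 0.431, 0.419 and 0.426 in WT and 0.333, 0.373, 0.398 and 0.351 in the KO-labelled libraries. That ratio is a description chosen out of the 36 after its values were seen, and it was not tested. Among single genes, the CPM groups did not overlap in 5.70% of all genes tested. The share for ratios between other genes was not computed.

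Across libraries the 9 genes did not move as a block. Within the genotypes, after each group's mean was removed, Cntn1 and Sptbn4 ran opposite to each other, with a correlation of log2 CPM of -0.94 over the 8 libraries. Cntn1 and Cntnap1, the partners of the paranodal junction, were at -0.85. Other pairs ran together: Cntnap1 with Sptbn4 (0.88), Cntn2 with Epb41l3 (0.87) and Cntn1 with Nrcam (0.86). The pairs named had the highest and the lowest values of all pairs of members, and were picked after the values were seen. Some pairs were near 0, such as Nfasc with Cntnap2 (0.01) and Cntn1 with Ank3 (-0.07). All of these values come from the same 8 libraries and share their depth scaling, so they describe these libraries. WT replicate 1 had Nrcam 0.23 and Cntn1 0.15 above their WT mean on the log2 scale and Sptbn4 0.25 and Cntnap1 0.19 below it (-0.25 and -0.19). WT replicate 3 showed the reverse, with Sptbn4 at 0.27 and Cntnap1 at 0.23 and with Cntn1 at -0.14 and Nrcam at -0.06.

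**Figure D4:**
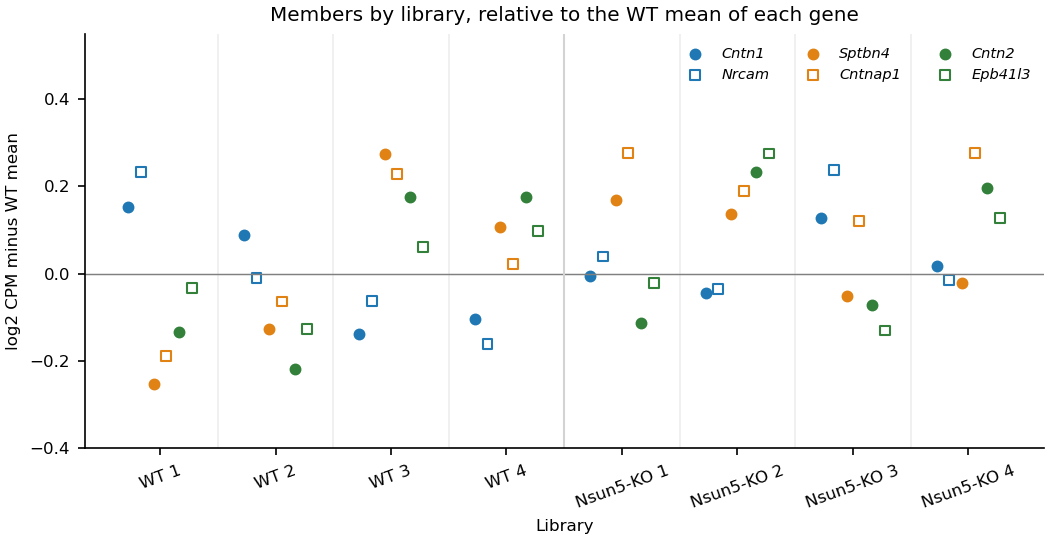
Log2 CPM of 6 members in each library relative to the WT mean of the gene. Blue marks Cntn1 and Nrcam, orange Sptbn4 and Cntnap1, and green Cntn2 and Epb41l3. Blue points lie above orange ones in WT replicates 1 and 2 and below them in WT replicates 3 and 4.

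Base composition of the transcripts moved with this pattern. In GENCODE M21, the mean GC content of the gene's transcripts was 44.5% for Cntn1 and 45.7% for Nrcam, below the lower quartile of the genes tested (46.2%). It was 62.5% for Sptbn4, 58.3% for Cntnap1, 56.3% for Cntn2 and 55.6% for Nfasc, above the upper quartile (55.1%). Cntnap2 (47.3%), Ank3 (49.6%) and Epb41l3 (50.6%) lay between. Over all genes tested, the median deviation of genes above the upper GC quartile minus that of genes below the lower quartile was -0.14 and -0.18 log2 CPM in WT replicates 1 and 2, and 0.11 and 0.14 in WT replicates 3 and 4. In the KO-labelled libraries that difference was 0.07, 0.05, -0.05 and -0.0005. A smooth offset on GC content was then fitted to each library, added after seeing the data. With the offset, the correlation of Cntn1 with Sptbn4 was -0.84 and that with Cntnap1 -0.65. Cntn1 with Nrcam stood at 0.81, Cntnap1 with Sptbn4 at 0.73 and Cntn2 with Epb41l3 at 0.86. The part of base composition in the member values was not tested further.

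Promoters of 7 of the 9 members were found in the RefSeq table of GRCm38.p6, and Ank3 and Cntnap1 were not among them. Those of Cntn1, Nrcam and Sptbn4 are printed because the first 2 ran together across libraries and the third ran opposite to them. Each run goes from upstream of to just past the RefSeq start nearest to the start of the gene in the count table, and capitals mark GGGCGG, the core of the GC box, searched on both strands. The windows are chr15:92050915-92051214 (plus strand), chr12:44328635-44328934 (plus strand) and chr7:27446540-27446839 (minus strand).
Cntn1: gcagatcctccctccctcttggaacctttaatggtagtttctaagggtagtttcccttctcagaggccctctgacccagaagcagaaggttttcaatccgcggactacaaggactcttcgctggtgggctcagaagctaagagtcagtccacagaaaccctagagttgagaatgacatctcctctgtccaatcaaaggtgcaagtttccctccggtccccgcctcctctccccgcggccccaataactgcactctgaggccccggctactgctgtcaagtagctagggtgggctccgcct
Nrcam: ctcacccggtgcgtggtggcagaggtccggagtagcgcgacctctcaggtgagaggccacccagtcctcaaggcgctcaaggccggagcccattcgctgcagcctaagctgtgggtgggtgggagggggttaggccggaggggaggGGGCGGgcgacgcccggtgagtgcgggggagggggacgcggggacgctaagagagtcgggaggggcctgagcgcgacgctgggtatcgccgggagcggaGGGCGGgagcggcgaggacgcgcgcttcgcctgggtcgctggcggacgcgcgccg
Sptbn4: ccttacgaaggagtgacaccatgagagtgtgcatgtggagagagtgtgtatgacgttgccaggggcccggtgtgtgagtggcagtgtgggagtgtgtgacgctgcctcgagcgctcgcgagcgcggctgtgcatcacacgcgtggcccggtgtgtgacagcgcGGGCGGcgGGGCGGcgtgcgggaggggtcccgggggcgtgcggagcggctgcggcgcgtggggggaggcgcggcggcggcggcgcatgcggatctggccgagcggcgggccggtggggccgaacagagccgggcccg
The letters GGGCGG occurred 2 times in the windows of Nrcam and Sptbn4 and not in that of Cntn1, and 35.7% of the 32851 promoters in the table held them. GC content was 74.0% in the Nrcam window, 73.7% in that of Sptbn4 and 55.3% in that of Cntn1, beside a median of 52.7% over the table. By promoter GC content Nrcam was close to Sptbn4, while by profile across libraries it was close to Cntn1.

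For each member, the genes outside the list with the nearest profile were taken by the root mean square difference of centred log2 CPM over the 8 libraries. Nfasc was nearest to Denr (0.03) and Trmt2a (0.03), and Nrcam to Gpd2 (0.03) and A230056P14Rik (0.04). Ank3 was nearest to Rab30 (0.04) and Zzef1 (0.05), and Sptbn4 to Mib2 (0.04) and Abtb1 (0.04). Cntnap1 was nearest to Rtn2 (0.03) and Tmem120b (0.05), Cntn1 to Vps35 (0.02) and Usp24 (0.03), and Epb41l3 to Pfdn1 (0.04) and Pisd (0.04). Cntn2 was nearest to Atpaf1 (0.04) and Polr2e (0.06), and Cntnap2 to Slc4a4 (0.05) and Shisa9 (0.05). The members' own spread on that scale was 0.08 (Nfasc) to 0.17 (Cntn2).

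Summed markers of myelinating oligodendrocytes and of neurons did not overlap between the groups. Each of 15 myelinating oligodendrocyte markers was lower than in WT (median -0.41 on the log2 scale), and their summed level was 7374 to 7997 CPM in WT and 4798 to 6600.5 CPM in the KO-labelled libraries. Of 12 pan-neuronal markers 11 lay above WT, with a summed level of 7750.5 to 8109.9 CPM in WT and 8890.5 to 9366 CPM in the KO-labelled libraries. EdgeR called none of these markers over all genes, with 13 of the 15 lower and 5 of the 12 higher at an unadjusted p below 0.05. Over all genes, 5.05% were lower and 5.30% higher at that p. None of the 27 markers was at 0 in any library. Astrocyte markers summed to 3783 to 4444 CPM in WT and 4089 to 4668 CPM in the KO-labelled libraries, which overlapped. Oligodendrocyte precursor markers summed to 235 to 283 CPM and 198 to 237 CPM, which overlapped slightly, with 7 of 8 below WT. Markers of other cells and regions were also read. All 8 of 12 hypothalamic neuron markers that passed the filter lay below WT (median -2.05), with summed levels of 32.4 to 86.3 CPM in WT and 13.2 to 24.5 CPM in the KO-labelled group. All 8 excitatory cortical neuron markers lay above WT (median 0.52), with sums of 1109 to 1454 CPM against 1451 to 1933 CPM, which overlapped slightly. All 9 choroid plexus and ependyma markers lay below WT (median -0.92), with sums of 337 to 1189.6 CPM against 67.5 to 1195 CPM, which overlapped. EdgeR called 0 genes of these 3 lists. The part of these markers in the values of the members and of the other node genes was not tested. Within the KO-labelled group, Cntn2 and Epb41l3 were lowest in replicates 1 and 3, the libraries with the lowest myelin score (-0.60 and -0.71 log2 CPM against -0.16 and -0.29 in replicates 2 and 4). In the same replicates 1 and 3 the summed thalamic and midbrain markers were at 172 and 187 CPM, against 402 and 278 CPM in replicates 2 and 4. In WT the myelin scores lay close together, at 0.01, -0.03, 0.06 and -0.04 in replicates 1 to 4. Cntn2 was low in replicates 1 and 2 (-0.13 and -0.22 log2 CPM from the WT mean) and high in replicates 3 and 4 (0.18 each). Between the groups, the log2 fold changes of Cntn2 (0.06) and Epb41l3 (0.07) had 95% intervals that included 0. The myelin scores were lower in the KO-labelled libraries. Whether these genes follow the myelin score was not tested.

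The other genes of the node region were read from lists that do not contain the members. Of 17 genes for ion channels of the node and juxtaparanode, edgeR called 0 higher and 0 lower. Of these, 13 lay above WT, and the median log2 fold change was 0.11. At an unadjusted edgeR p below 0.05 there were 5 of the 17, all higher, beside 5.30% higher over all genes. Scn8a, the main sodium channel of mature nodes, was at 265 ± 26.3 CPM in WT and 334 ± 16.5 in KO-labelled libraries (log2 fold change 0.33, edgeR adjusted p = 0.307), and the groups did not overlap. Scn1a was at 0.51 and the juxtaparanodal potassium channel gene Kcna2 at 0.34, with groups that did not overlap either. The Scn1a groups nearly met, at 211.2 CPM in WT replicate 3 and 212.9 CPM in KO-labelled replicate 3. Without WT replicates 1 and 2, Scn8a was at 0.25, Scn1a at 0.36 and Kcna2 at 0.23. Scn8a, Scn1a and Kcna2 were the only 3 of the 17 whose groups did not overlap, beside 2.99% higher without overlap over all genes. DESeq2 called Scn8a (adjusted p = 0.0266) and Scn1a (adjusted p = 0.0487), and no other tool run did.

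**Figure D5:**
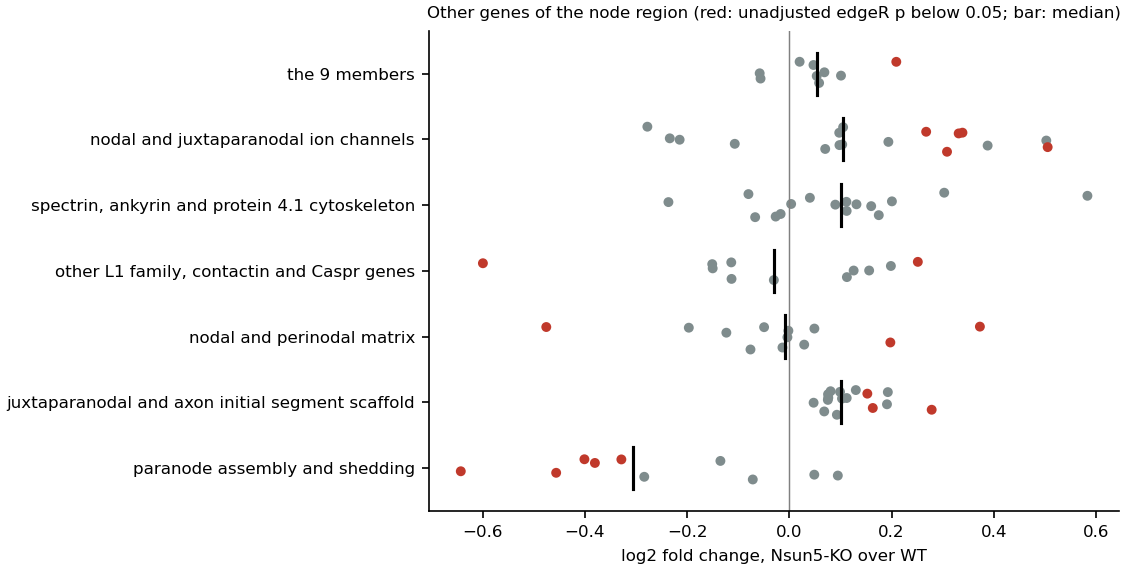
Log2 fold change of the KO-labelled libraries over WT for the 9 members and for the 6 lists of other node genes. Each point is a gene, red where the unadjusted edgeR p was below 0.05, with vertical scatter for legibility only, and the bar is the median. The members cluster near 0, and points of the paranode assembly list lie furthest below it.

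Scaffold genes that share a network with the members were read in 2 lists. Among 16 spectrin, ankyrin, adducin and protein 4.1 genes, edgeR called 0 in either direction, 11 lay above and 5 below WT, the median was 0.10, and 0 of the 16 reached an unadjusted p below 0.05. Sptan1, the alpha spectrin that pairs with beta-IV spectrin, was at 943 ± 17.2 CPM in WT and 1033 ± 43.7 in KO-labelled libraries (log2 fold change 0.13, edgeR adjusted p = 0.483). Epb41l1 was at 0.11 (0.058 without WT replicates 1 and 2) and the sparse Sptbn5 at 0.58. All 16 genes of the juxtaparanodal and axon initial segment scaffold lay above WT with a median of 0.10, and edgeR called 0 of them. Adam23 (0.28) and Adam22 (0.16), receptors of the LGI proteins, and Ndel1 (0.15) had the smallest p in that list. Over all genes tested, 48.6% lay above WT. These lists were chosen with earlier results of these data known. The pan-neuronal markers also lay above WT, and their part in these lists was not tested.

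Relatives of the members and matrix genes lay on both sides of WT. Of 11 other L1 family, contactin and Caspr genes, 5 lay above and 6 below WT, with a median of -0.03 and 0 called by edgeR. Cntn4 was at 0.25, Cntn6 at 0.16 (0.077 without KO-labelled replicate 4) and Cntnap5c at -0.60, the last at a low level of 7.94 ± 1.81 CPM in WT and 5.24 ± 1.56 in KO-labelled libraries. In 12 genes of the nodal and perinodal matrix the median was -0.01 and edgeR called 0. Hapln2, the link protein of central nodes, which oligodendrocytes make, was at 21.4 ± 3.12 CPM in WT and 15.4 ± 2.30 in KO-labelled libraries (log2 fold change -0.48, edgeR adjusted p = 0.316). Hapln4, a link protein of neurons, was at 0.37 (0.24 without WT replicate 2) and the proteoglycan gene Ncan at 0.20 (0.07 without WT replicates 1 and 2). The last list holds 10 genes of paranode assembly and of the shedding of adhesion proteins, 8 of which lay below WT with a median of -0.31 and 0 called by edgeR. At an unadjusted edgeR p below 0.05 there were 5 of the 10, all lower, beside 5.05% lower over all genes. None of the 5 was a sheddase, and among them were Ugt8a (-0.38) and Fa2h (-0.40), enzymes of the galactolipids that paranodes need. Without KO-labelled replicates 1 and 3, Ugt8a was at -0.24, Fa2h at -0.21 and Hapln2 at -0.31. The oligodendrocyte markers, 4 of which this list holds, lay below WT as well, and their part was not tested. The sheddase genes Bace1 and Adam10 were at 0.09 and 0.05.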

How the data were processed

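Brain RNA was sequenced in 8 libraries, 4 per genotype. TRIzol extraction and a NEBNext Ultra RNA library kit are named, per the labels' protocols, with no strand marking stated. Alignment to mm10 used HISAT2 2.0.5, per the submitters' processing notes; counting tool and annotation: not given in the sources used here. Counts were used as deposited by the authors, whole and unscaled. FPKM as deposited was the count over gene length and over 0.981 to 1.02 times the library total. The deposited gene length (bases, other unit) served that check, and the authors' group means were not used.

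The main test was edgeR 4.0.16 (R 4.3.3), with filterByExpr, TMM scaling, a robust quasi-likelihood F test on all 8 libraries and Benjamini-Hochberg adjustment over all genes tested at 0.05. Log2 fold changes compare KO-labelled libraries with WT. CPM uses TMM-scaled library sizes, with a prior count of 2 on the log2 scale. Named genes were the 9 members, the 3 genes of smallest p per list and the 2 nearest profiles per member. 1 gene that this rule names is not reported here. Bace1 and Adam10 were named after their values were seen. The members and lists were chosen with earlier results of these data known. Alternatives were DESeq2 1.42.0, limma 3.58.1 (voom with sample weights, and log2 FPKM with pseudocounts 1 and 0.1), other scalings and filters, protein-coding genes alone, a replicate block and single libraries omitted. A GC offset and the omission of pairs of libraries were added after seeing the data. The pipeline was tested on simulated data. Coordinates of all 9 members matched GENCODE M21 (GRCm38), which gave GC content for 99.9% of genes tested.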

Additional observations from a re-analysis of the deposited data

Results flagged for a closer look

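Among the members, Cntnap2 was flagged because WT replicate 2, at 147 CPM, stood apart from the other 3 WT libraries, at 128 to 131 CPM. Its gap to the nearest library was 0.872 of the WT range. In 4 other named genes a library stood apart in the same way: Adam22 in replicate 2 labelled Nsun5-KO (0.844), Hapln4 in WT replicate 2 (0.87), Cntnap5c in replicate 3 labelled Nsun5-KO (0.983) and Sptbn5 in WT replicate 4 (0.967). These 5 are out of 54 groups of 4 libraries looked at, and chance flags about 1 in 20 groups.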

How the results depend on the processing

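No member was called under any of the 22 alternatives. Over all genes, edgeR called 0, against 94 by DESeq2, 68 by edgeR without the low-count filter and 0 to 2 with single libraries left out (2 without replicate 4 labelled Nsun5-KO). Of the genes on the other lists, DESeq2 called 2 and edgeR without the filter 1 (Ugt8a). The median of the members was 0.017 to 0.090 with single libraries left out and -0.0019 without WT replicates 1 and 2. The cause of the sign changes was not tested: Cntn1 was at -0.0037 with upper quartile scaling, -0.0049 with library totals only and -0.019 without replicates 1 and 3 labelled Nsun5-KO. Without WT replicates 1 and 2, Cntn2 was at -0.11, Sptbn4 at -0.13 and Epb41l3 at -0.011. Without replicates 1 and 3 labelled Nsun5-KO, Cntnap2 was at 0.097 and Nrcam at -0.032. With single libraries left out the ranges were -0.023 to 0.070 (Cntn1), -0.015 to 0.12 (Cntn2), -0.035 to 0.15 (Sptbn4), -0.090 to 0.0013 (Nfasc), -0.0083 to 0.13 (Nrcam), -0.011 to 0.13 (Epb41l3) and -0.17 to 0.025 (Cntnap2). Cntnap1 and Ank3 kept their sign in all 22. The replicate block changed no member's call (0 called, median 0.06). Same-numbered libraries did not deviate together (correlations -0.21 to 0.06), and those with different numbers were at -0.17 to 0.18. These values cannot show whether the numbers pair the samples. The precision of each difference is given by its 95% interval, which rests on 4 libraries a group.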
